A study of Xenopus laevis with 11 samples.

Results

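The ventx genes of Xenopus laevis encode a family of homeodomain transcription factors that lie side by side on chromosome 7 of each subgenome. All genes whose symbol starts with ventx in the RefSeq table of the v10.1 assembly were taken, which gave 10 of 34461 protein-coding genes, 5 on 7L and 5 on 7S. Of the 58223 accessible regions in the stage 9 peak list, the 37 whose summit lay in a ventx cluster or within 50 kb of it were described, each counted once. The list came from ATAC-seq, in which a transposase inserts sequencing adapters where DNA is open, on animal caps, the explanted ectoderm of the blastula. The embryos were wild type (strain Xla.NXR-WTNXR), the labels name no treatment, and the study's methods state that eggs of more than 1 mother were pooled in each collection. The peak list pooled 6 libraries of 4 replicates at stage NF9, with 2 caps per reaction. Of these libraries, 4 were size selected. Replicates 1 and 2 each gave 1 library without size selection and 1 size-selected resequencing of it. The other replicates gave size-selected libraries only. The 5 libraries of stage NF8 were not analysed here. Since only 1 pooled list was used, no value has a spread between replicates, and the comparison of the L and S subgenomes at this locus is a description with no test.

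Ventx proteins act mainly as transcriptional repressors. BMP signals, which are carried into the nucleus by Smad proteins, switch ventx genes on in the ventral and lateral embryo, and the proteins in turn keep organizer genes such as gsc and chrd.1 off outside the dorsal side. They are also known for holding early embryonic cells in an uncommitted state. For this role they have been likened to mammalian NANOG, a factor that Xenopus lacks. Homeologs, as matching genes of L and S are called, descend from the parental species whose hybridization gave rise to X. laevis, and the question behind their comparison is how far the regulatory regions of such copies have come apart.

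The whole list sets the scale. Chromosomes carried 21.2 peaks per Mb, the median peak was 155 bp wide, and its summit held 9 fragments at a fold enrichment of 5.51 over the local background. Fold enrichment divides the fragments at a summit by that background, after 1 is added to both. No peak in the list had fewer than 5 fragments, so stretches that lack one may hold accessible DNA that these libraries were too shallow to detect.

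Gene order was the same on both chromosomes. From left to right, in the direction of rising coordinates, both clusters ran ventx3.2, ventx1.2, ventx2.2, ventx1.1 and ventx2.1. On 7L the cluster spanned 76367 bp (7L:21731065 to 21807431) and on 7S 63663 bp (7S:16864837 to 16928499), both in v10.1 coordinates. In 3 of the 4 gaps the neighbouring genes were closer together on S, and the largest drop was between ventx1.1 and ventx2.1, which lay 14097 bp apart on L and 8655 bp apart on S. The exception was the gap between ventx2.2 and ventx1.1, of 9411 bp on L and 9846 bp on S. The gene table gives no strand, exons or UTRs, so the ends of a gene are called left and right, and which of them holds the transcription start was not determined.

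Accessible regions were denser at both clusters than the averages of 7L and 7S, and more numerous on S. With their 50 kb flanks, the L locus held 12 peaks and the S locus 25. This amounts to 68.0 peaks per Mb on L and 153 on S, against averages of 19.69 on 7L and 19.74 on 7S. Such averages include long empty stretches. Over all chromosomes the median gap between neighbouring summits was 8812 bp and the 90th percentile 132351 bp. Peaks covered 3303 bp, or 1.87%, of the L locus and 5726 bp, or 3.50%, of the S locus. Between the first and the last ventx base lay 7 peaks on L and 13 on S, the left flank held 1 and 6, and the right flank held 4 and 6. Widening the flanks to 100 kb added 0 peaks on L and only 1 on S, whose total became 26, so the dense stretch ended within 50 kb of the genes.

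**Figure D1:**
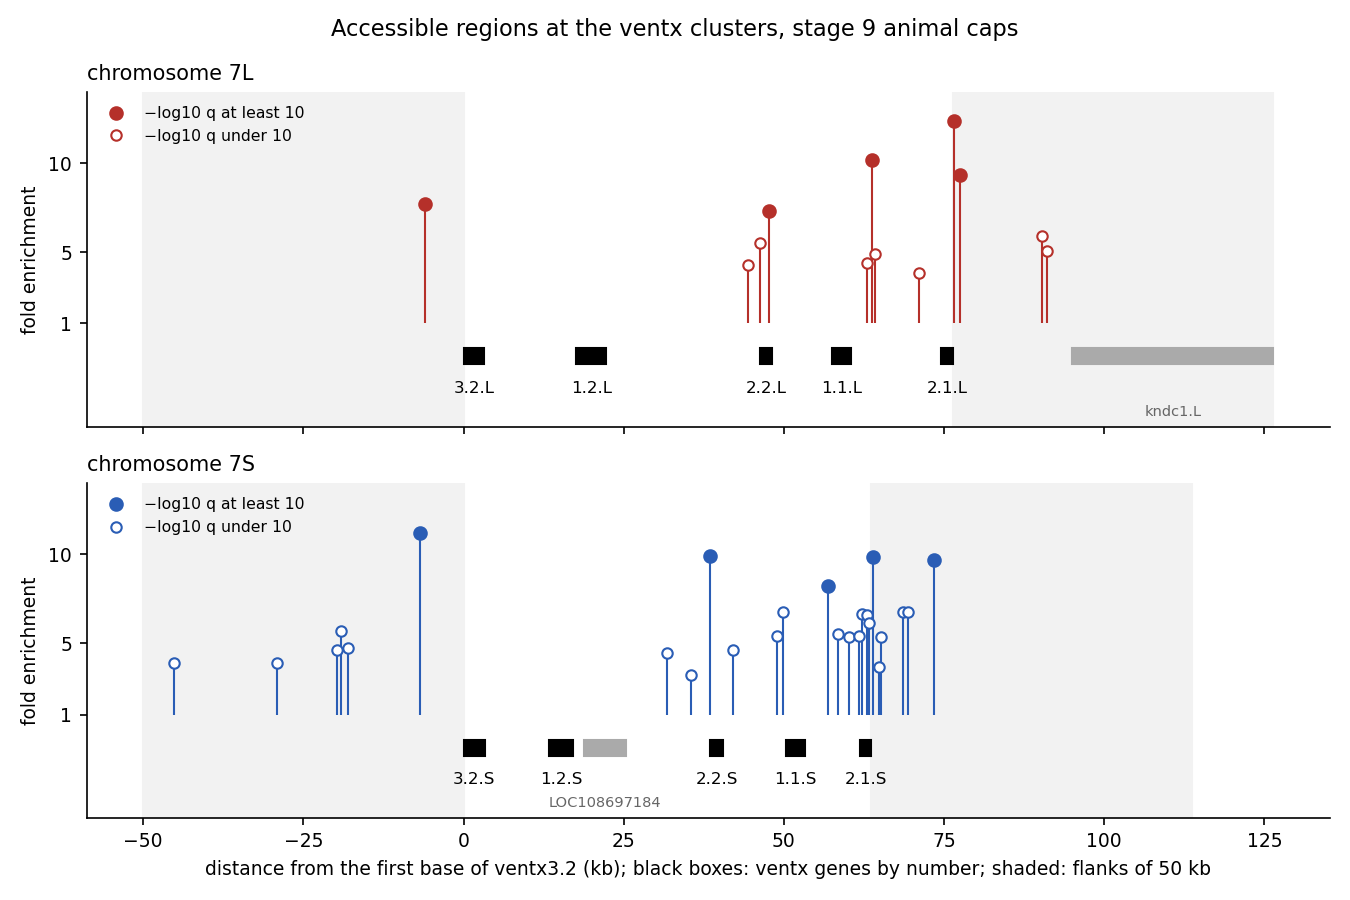
Peaks at the ventx clusters of chromosome 7L (top) and 7S (bottom), drawn at the distance of the summit from the first base of ventx3.2 (kb, horizontal axis) and at their fold enrichment (vertical axis). Black boxes are ventx genes, named by their number, grey boxes are other genes, shading marks the 50 kb flanks, and filled circles are peaks whose −log10 q reaches 10. Both clusters have a strong peak left of ventx3.2, a long empty stretch over ventx3.2 and ventx1.2, and most of their peaks from ventx2.2 rightward. Between ventx2.2 and ventx1.1 lie 0 peaks on L and 3 on S.

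The excess on S lay in peaks with a −log10 q under 10, and part of it was at or above the list's median fold. Each locus held 5 strong peaks, defined by a −log10 q of 10 or more, a limit passed by 20.4% of the whole list. These were 5 of 12 L peaks and 5 of 25 S peaks. The 20 S peaks below this limit stood against 7 on L. At a limit of 5, passed by 47.3% of the list, the numbers were 6 on L and 13 on S. At a limit of 8 they were already equal at 5. Peaks at or above the list's median fold numbered 7 on L and 13 on S. The fragments at the 5 strong summits summed to 90 on L and 95 on S, whereas over all summits the sums were 146 and 285. The median fold enrichment was 5.72 on L (at most 12.4) and 5.53 on S (at most 11.2), both close to that of the whole list. The local background, estimated from control libraries of another assay (no-antibody CUT&RUN), also differed. Its median at the summits was 0.780 fragments on L and 1.06 on S, with ranges of 0.626 to 1.59 and 0.626 to 2.12. It was above 1 at 4 of 12 L summits and 13 of 25 S summits, against 30.6% of the whole list. Its part in the number of calls was not tested.

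**Figure D2:**
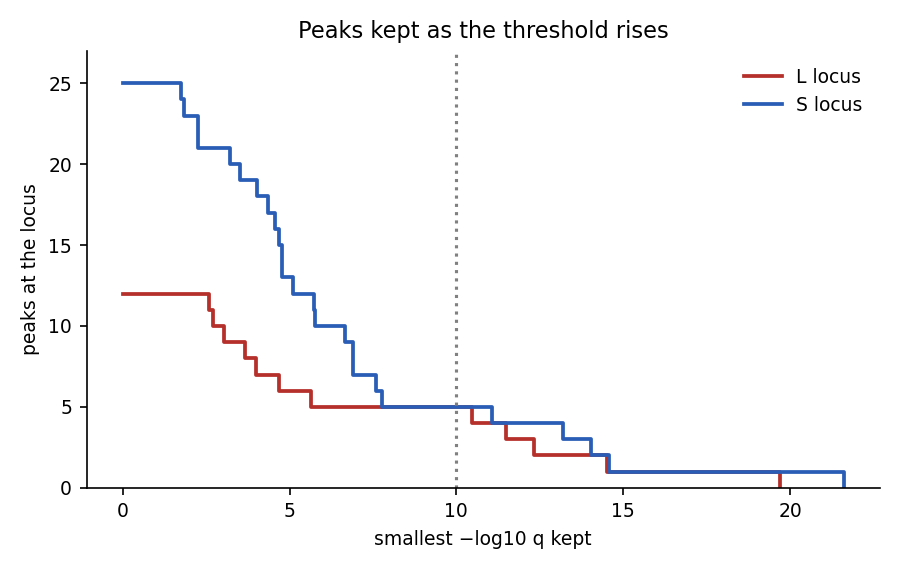
Number of peaks kept at the L locus (red) and the S locus (blue) as the smallest −log10 q accepted rises along the horizontal axis; the dotted line marks 10. The curves start at 12 and 25 peaks, meet at 5 before the dotted line, and differ by at most 2 peaks beyond it.

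Of the 10 ventx genes, 5 had a summit no more than 1 kb from an end, against 47.8% of all protein-coding genes, and 8 had a peak within 10 kb, against 65.7%. For strong peaks the shares stood farther from the background: 8 of 10 ventx genes had one within 10 kb, against 31.8% of all protein-coding genes, and 4 had one within 1 kb, against 22.9%. Some of the gene groups counted below had a share of genes with a strong peak within 10 kb that was at least as high. The ventx windows overlap, so 1 peak can count for neighbouring genes, and these shares are given as a description. What varied was the number of peaks per gene, which ran from 0 to 13 within 10 kb with a median of 3, where the median of all protein-coding genes was 1. Within 50 kb, where the windows of neighbours largely coincide, the L genes had 4 to 11 peaks and the S genes 12 to 21. S had more peaks within 10 kb than L in 3 of the 5 homeolog pairs and the copies were equal in the other 2. Among all 7759 homeolog pairs, S had more in 30.4% and L had more in 39.8%.

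**Figure D3:**
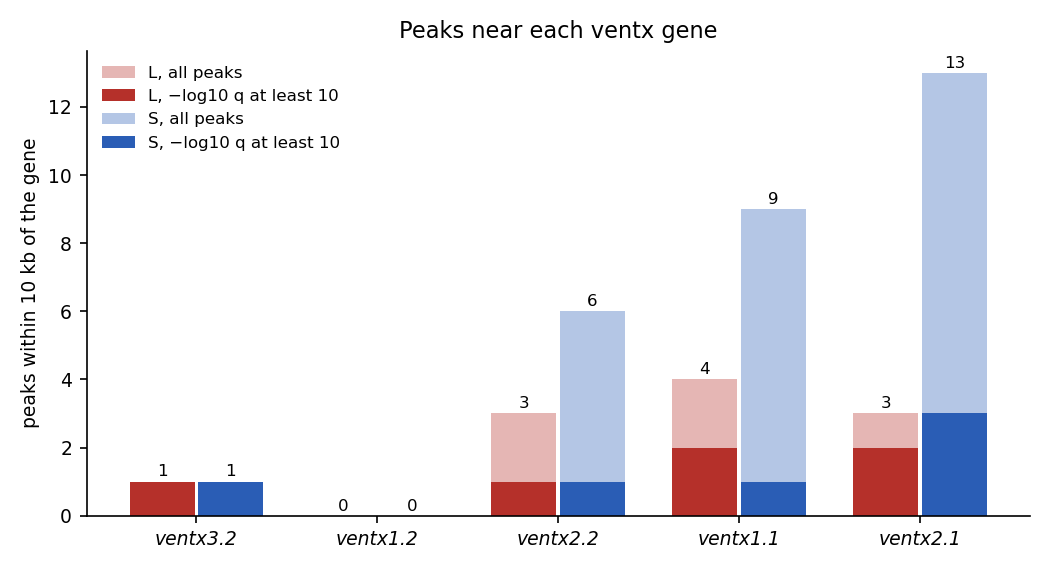
Peaks within 10 kb of each ventx gene (vertical axis), for the L copy in red and the S copy in blue, with genes in their order along the chromosome. Pale bars count all peaks and dark bars those whose −log10 q reaches 10; S exceeds L at ventx2.2, ventx1.1 and ventx2.1 in all peaks, while the dark bars differ by at most 1. A peak near neighbouring genes is counted for each of them.

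The left part of the cluster was nearly empty on both subgenomes. ventx3.2 (also called vex1) had no peak within 1 kb at ventx3.2.L (7L:21731065 to 21734295) or ventx3.2.S (7S:16864837 to 16868180), and 1 strong peak within 10 kb at each. At L this peak (7L:21724884 to 21725216) had its summit 6045 bp left of the gene, with 19 fragments (95% Poisson interval 11.4 to 29.7) and 7.72-fold enrichment. At S it (7S:16857997 to 16858307) lay 6736 bp left of the gene, with 28 fragments (18.6 to 40.5) and 11.2-fold enrichment, the highest fold and the most fragments of the S locus. The counting intervals of the L and S summits overlap, and the local background was 1.59 fragments at both. In the whole list, 2.71% of peaks had at least as many fragments as the S summit. To the right of the genes the next summit was 41193 bp away on L and 28407 bp on S.

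ventx1.2, the gene also known as Xvent-1, had no peak within 10 kb on either subgenome. Around ventx1.2.L (7L:21748635 to 21753346) the nearest summits lay 23615 bp to the left and 22142 bp to the right, and around ventx1.2.S (7S:16878209 to 16881959) 20108 bp to the left and 14628 bp to the right. Both genes sat in the longest peak-free stretch of their locus, which also took in ventx3.2 and measured 50468 bp between summits on L and 38486 bp on S. Such stretches are common in the list, where 24.2% of the gaps between neighbouring summits were at least as long as that on L and 28.6% as long as that on S. On S the uncharacterised gene LOC108697184 (7S:16883577 to 16890246) lay in the same stretch, with 0 peaks within 1 kb of its ends and 1 within 10 kb.

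ventx2.2, first known as Xvent-2 or Xom, a direct target of BMP signals, was accessible at its left end on both subgenomes. At ventx2.2.L (7L:21777297 to 21779193) a summit with 8 fragments (3.45 to 15.8, 5.53-fold) lay 19 bp inside the left end. At ventx2.2.S (7S:16903309 to 16905323) a summit with 17 fragments (9.90 to 27.2, 9.90-fold) fell on the first base of the gene itself. The stronger L peak was elsewhere, 472 bp inside the right end, with 18 fragments (10.7 to 28.4) and 7.33-fold enrichment. No S peak was called at that place, and the nearest to the right end of ventx2.2.S was 1498 bp outside it with 11 fragments. Within 10 kb there were 3 peaks at L and 6 at S, of which 1 at each had a −log10 q over 10.

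ventx1.1, known as PV.1, is likewise a BMP-induced repressor. The copies differed close to the gene. ventx1.1.L (7L:21788605 to 21791493) had no peak within 1 kb of an end, and its nearest summits were 9884 bp to the left, inside ventx2.2.L, and 2583 bp to the right. ventx1.1.S (7S:16915170 to 16918074) had a peak 462 bp left of it with 10 fragments (4.80 to 18.4, 6.76-fold) and another 1482 bp left with 8. To the right each copy had 1 strong peak before the next gene. That of ventx1.1.L (7L:21794618 to 21794947) lay 3272 bp beyond the gene with 17 fragments (9.90 to 27.2, 10.2-fold), and that of ventx1.1.S (7S:16921615 to 16921891) 3658 bp beyond it with 16 (9.15 to 26.0, 8.25-fold). The strong L peak was flanked by weaker peaks at 2583 bp (8 fragments) and 3799 bp (7 fragments). Within 10 kb to the right were 3 peaks at L and 6 at S, and within 10 kb on both sides there were 4 at L and 9 at S. Of the S peaks, 6 were also within 10 kb of ventx2.1.S, while the L copies of these genes, which are farther apart, shared 0.

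ventx2.1, the close relative of ventx2.2, held the strongest accessible region of the L cluster and the most crowded gene of the S cluster. At ventx2.1.L (7L:21805591 to 21807431) a peak of 1118 bp (7L:21806579 to 21807696) covered the right end, from 852 bp inside the gene to 265 bp outside it. Its summit, 176 bp outside the gene, had 21 fragments (13.0 to 32.1) and 12.4-fold enrichment, and 0.244% of peaks in the list were at least as wide. A further peak 1103 bp outside had 15 fragments (8.40 to 24.7, 9.31-fold). Left of the gene was only a weak peak at 3387 bp, with 9 fragments.

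At ventx2.1.S (7S:16926730 to 16928499) 5 separate peaks were called within 1 kb of an end. Of these, 3 lay in the stretch at the right end that matches the broad L peak of 1118 bp, and covered 656 bp of that stretch. The other 2 lay at the left end, where ventx2.1.L had no summit within 1 kb. The nearest summit outside that end of ventx2.1.L was the one at 3387 bp. Their summits lay 199 bp outside and 293 bp inside the left end, 718 bp and 316 bp inside the right end, and 216 bp outside the right end, with 13, 13, 10, 9 and 15 fragments. The last was the strongest of them (7S:16928548 to 16928799, 9.84-fold, 8.40 to 24.7 fragments) and stood 40 bp farther from its gene than the main summit of ventx2.1.L. Within the gene and 1 kb on each side, peaks covered 1230 bp at ventx2.1.L and 1047 bp at ventx2.1.S.

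Beyond that the S copy had more. Within 10 kb of ventx2.1, peaks covered 1589 bp at L and 2882 bp at S, in 3 and 13 peaks. An excess of at least 10 peaks at S was found in 11 of all 7759 homeolog pairs. This limit is the difference at ventx2.1 itself, the largest of the 5 ventx pairs, so the share is a description only. The count depends on gene spacing, however. The stretch between ventx1.1 and ventx2.1 held 4 peaks on each copy, of which 1 was strong. It was 8655 bp long on S and lay wholly within 10 kb of ventx2.1.S. On L it was 14097 bp long, and the window of ventx2.1.L took in only part of it. To the right of ventx2.1.S were peaks at 4959 bp (13 fragments, 6.79-fold) and 5766 bp (10 fragments, 6.76-fold), and a strong one at 9826 bp (7S:16938189 to 16938483), with 19 fragments (11.4 to 29.7) and 9.70-fold enrichment. No peak was called at those distances from ventx2.1.L, where the next summits lay at 13888 bp (10 fragments) and 14646 bp (8 fragments), in the space before kndc1.L. This neighbour (7L:21826097 to 21918131) begins 18666 bp right of the cluster. It had 1 peak within 1 kb of an end, at its right end, far outside the locus, and no peak within 1 kb of the end that faces the cluster. On S the next annotated gene to the right was adgra1.S, 81850 bp away.

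**Figure D4:**
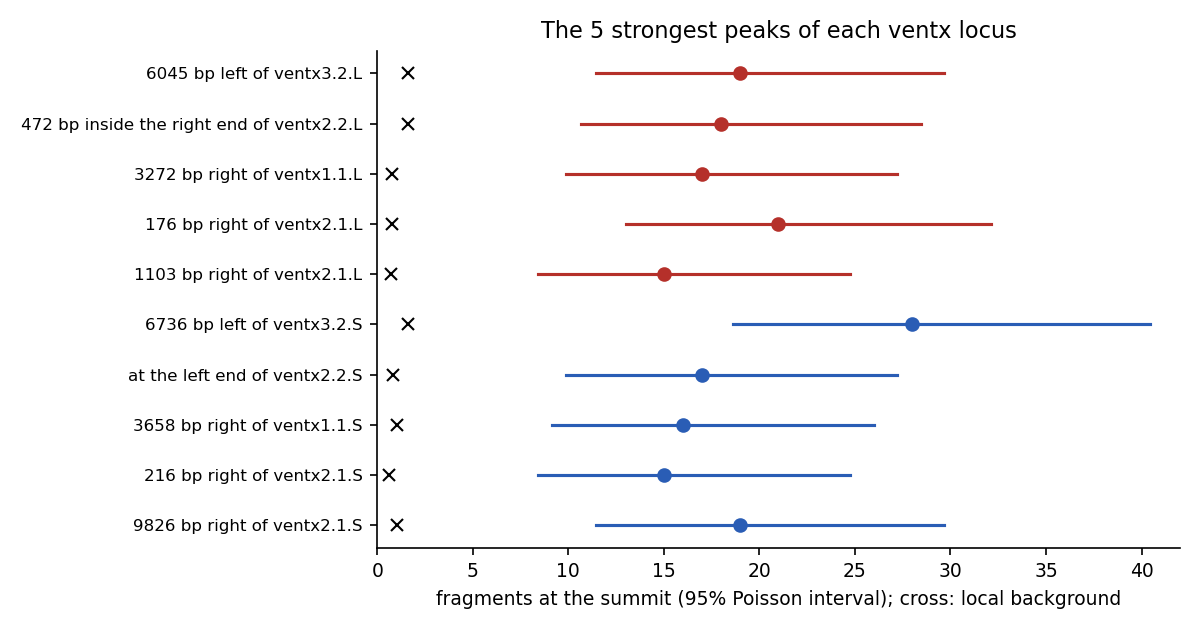
Fragments at the summits of the 5 peaks of highest fold enrichment at the L locus (red) and the S locus (blue), from left to right along each chromosome, named by their place beside the nearest ventx gene. Points are fragments, lines are 95% Poisson intervals and crosses are the local background in fragments; points lie between 15 and 28, crosses between 0.626 and 1.59, and the intervals of all 10 summits overlap.

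The places of peaks beside matching genes were compared by distance alone, since no genome sequence was used. When each L peak was set against the same end of the S homeolog, 5 of the 12 L peaks had an S peak at the same distance within 500 bp, each S peak being used once. The tolerance was chosen after the positions had been seen. The matched places were the left end of ventx2.2 (19 bp apart in their distances), right of ventx1.1 (141 bp), left of ventx2.1 (47 bp), just beyond the right end of ventx2.1 (40 bp) and farther right of it (143 bp). Their fragments, L then S, were 8 and 17, 7 and 16, 9 and 8, 21 and 15, and 15 and 5. Of these matches, 1 had a −log10 q over 10 on both sides, the summit just beyond ventx2.1. This count depends on the order of matching, in which the closest places went first and the strong S peak right of ventx1.1 was given to the weak L peak at 3799 bp. The strong L peak there was 386 bp from it in distance, also within the tolerance, and when strong peaks were matched with each other alone the count was 2, an alternative chosen after seeing the data. With a tolerance of 1000 bp the peaks left of ventx3.2 became a sixth match. When an S peak could serve more than 1 L peak, as was done for the whole chromosome, 6 of the 10 L peaks within 10 kb of a ventx gene had a match within 500 bp, against 39.4% of 1129 such peaks along 7L. A match is easier to find where more S peaks lie near. The ventx genes had a median of 3 peaks within 10 kb, against 1 for all protein-coding genes. The contrast was not adjusted for this and was not tested. When each S peak was used once, the unmatched S peaks numbered 20, with a median of 10 fragments (7 to 28), and 2 of them were strong. On L 7 of the 12 peaks were unmatched. Since S had more peaks than L, many S peaks stay unmatched in such a matching wherever they lie.

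Genes that act with ventx in the BMP pathway were counted in the same way, against the 65.7% of all protein-coding genes with a peak within 10 kb and the 47.8% with one within 1 kb. A peak within 10 kb was found at 7 of 12 genes of BMP ligands (58.3%, below the share of all genes), 12 of 12 of receptors, 6 of 6 of signal-carrying Smads and 15 of 17 of BMP inhibitors. Direct BMP targets, among them the id genes, gata2, gata3 and msx1, had a peak within 10 kb at 19 of 20 genes and within 1 kb of an end at 19 of 20, with a median of 7.5 peaks within 10 kb. The ventx genes, also BMP targets, had the lower median of 3. The organizer genes that Ventx proteins repress had a peak within 10 kb at 11 of 14 (78.6%), with a median of 3 and up to 12 at not.L. The pou5f3 genes, another cluster of pluripotency regulators, had peaks within 10 kb at 6 of 6 genes with a median of 11.5. Their loci, taken with 50 kb flanks, held 24 peaks on 8L and 25 on 8S, or 198 and 191 per Mb, of which 7 and 3 were strong by the same limit. At the pou5f3 locus the total was thus nearly even and the strong peaks were more numerous on L, whereas at the ventx locus the strong peaks were even and the total was higher on S. A strong peak lay within 10 kb at 8 of 10 ventx genes, 16 of 20 direct BMP targets, 6 of 6 signal-carrying Smads and 5 of 6 pou5f3 genes. The counts were 11 of 17 for BMP inhibitors, 7 of 12 for receptors, 6 of 12 for ligands and 6 of 14 for organizer genes. Among all protein-coding genes the share was 31.8%. These contrasts between gene groups and loci were not tested. Gene length was not taken into account, although the 10 kb window includes the gene itself. The genes bambi, szl, nog and chrd.1 each stand in more than 1 list.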

How the data were processed

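ATAC-seq libraries of animal caps were made with 1 h of transposition and 12 cycles of amplification per the labels. The authors mapped read pairs to X. laevis v10.1 with Bowtie2 2.4.2, kept confident alignments, joined them into fragments, retained short fragments, pooled stage 9 libraries and ran MACS2 2.2.7.1 with no-antibody CUT&RUN libraries as the control. The submitters' processing notes also name bedtools 2.30.0. Reads that match several places are lost to the mapping filter, so near-identical stretches of neighbouring ventx genes or homeologs can lack a peak. The deposited columns used were the fold enrichment (a ratio), the −log10 p-value and −log10 q-value and the summit offset. The deposited score, 10 times the −log10 q-value, was not needed.

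Fragments and local background at each summit were recovered from the ratio and p-value together (pseudocount 1, Poisson tail, relative tolerance 0.0001). This had 1 solution for all 37 ventx peaks and at least 1 for 99.99% of the list. Intervals are exact 95% Poisson intervals. They cover counting error only, since the counts come from 1 pooled list that holds no spread between replicates. PCR copies were also not marked with molecular identifiers. Peaks were assigned by summit, and genes came from the RefSeq table of the same assembly. Counts and inversion were tested on simulated data. Python 3.11.15, numpy 2.4.6, pandas 2.3.3, scipy 1.17.1 and matplotlib 3.10.9 were used.

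Members, gene lists and alternatives were chosen with earlier results of these data known. Named were all ventx genes, the 5 strongest peaks of each locus, the nearest peak to the ends of each gene, and other genes in the loci. Of the listed pathway genes, smad5, smad4.1, smad6.1 and id1 had no match in the table and were not used. The planned comparison of promoter and protein sequences was not run.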

Additional observations from a re-analysis of the deposited data

How the results depend on the processing

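Of 45 alternative values computed, 31 stayed close to the reported value (counts within 1.5 times, medians within their 95% order-statistic interval), 14 moved and 0 reversed. The number of peaks at the L and the S locus was 7 and 13 without flanks (L minus S -6), 7 and 13 when only peaks at or above the list's median fold were kept (-6), 5 and 5 when −log10 q had to reach 10 (0) and, in an alternative chosen after seeing the data, 6 and 13 when it had to reach 5 (-7), against -13 as reported. All of these settings, the one without flanks included, keep fewer peaks by construction. Other flanks, overlap in place of summits and joining peaks under 500 bp apart gave differences of -14 to -10. The median fold enrichment was higher on both copies when −log10 q had to reach 10, at 9.31 against 5.72 on L and 9.84 against 5.53 on S. This rise follows largely from the limit, since q and fold come from the same counts. By the rule above the median stayed close on L and moved on S. Genes with a peak within 1 kb stayed at 4 to 5 of 10 and those within 10 kb at 6 to 9. Depth limits what can be called, since the weakest peak of the list had 5 fragments. No paired analysis was possible because all replicates of stage 9 are pooled in 1 list.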
